A study of Mus musculus with 74 samples.

Results

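Brown adipose tissue (BAT) of mice was followed through the morning by comparing adipocyte RNA taken at Zeitgeber time 5 (ZT5) with that taken at ZT1, where Zeitgeber time counts the hours since lights on. The comparison uses 6 of the 74 samples of the series, 3 RNA libraries at ZT5 and 3 at ZT1, chosen by their labels alone. Both groups came from Adiponectin-Cre:NuTRAP mice, in which Cre recombinase driven by the adiponectin promoter switches on tags on the ribosomes and nuclei of adipocytes. All 6 libraries therefore hold RNA pulled down with tagged adipocyte ribosomes and say little of other cells of the depot. Sex, age, diet and light schedule are not given in the labels, and nothing says that libraries came from separate animals, so p-values measure the spread between libraries, which may be technical. A further 11 BAT libraries from ZT9 to ZT21 entered the fit to estimate that spread. The same times in inguinal white adipose tissue (WAT) and the chromatin accessibility of BAT adipocyte nuclei served as other readouts.

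Brown fat burns lipid to make heat under sympathetic control, and much of its metabolism follows the body clock. In that clock, CLOCK and BMAL1 (encoded by Arntl) bind E-boxes and switch on the Per, Cry, Nr1d and Bhlhe40/41 repressors and the activator Dbp. NR1D1 and NR1D2 compete with ROR receptors to repress Arntl and Nfil3, and the NFIL3 repressor shares its D-box target sites with the activator DBP.

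The libraries held 12609367, 6242123 and 9243596 counts at ZT5, against 11484947, 9976901 and 46274438 at ZT1, so replicate 3 of ZT1 was by far the deepest. The 6 adipocyte markers (Adipoq, Plin1, Fabp4, Cidec, Pparg and Lpl) summed to 37944 to 43966 CPM, counts scaled to the size of the library, at ZT5 and 37465 to 44849 CPM at ZT1. Markers of lymphocytes summed to at most 0.541 CPM at ZT5 and 1.13 CPM at ZT1, with Cd79a at 0 in all 6 libraries. Schwann cell and nerve markers summed to 496 to 617 CPM at ZT5 and 510 to 866 CPM at ZT1. Erythroid markers summed to 79.3 to 144 CPM at ZT5 and 84.4 to 102 CPM at ZT1. Fibroblast and preadipocyte markers did not overlap, at 19.2 to 20.7 CPM at ZT5 and 23.2 to 29.3 CPM at ZT1. Smooth muscle and pericyte markers overlapped, with medians of 14.3 CPM at ZT5 and 20.6 CPM at ZT1. So did endothelial markers, with medians of 6.25 and 9.22 CPM. Brown adipocyte markers summed to 10934 to 11874 CPM at ZT5 and 8506 to 10407 CPM at ZT1. Skeletal muscle markers summed to 136 to 149 CPM at ZT5, and 29.4, 34.3 and 285 CPM at ZT1. Fewer cells of a type and less RNA per cell cannot be told apart in such sums. Mitochondrially encoded genes took 0.322%, 0.293% and 0.669% of counts at ZT5, against 0.280%, 0.143% and 0.163% at ZT1. Ribosomal RNA loci took 2.44% in replicate 3 of ZT5 and at most 1.39% in the other libraries, and that library also correlated least with its own group, at 0.955 and 0.971 across genes.

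Of 12394 genes tested, 64 passed an adjusted p of 0.05 in edgeR's quasi-likelihood test, or 0.516%. Of these, 40 were higher at ZT5 (0.323% of genes tested) and 24 were lower (0.194%). The largest log2 differences among called genes were in Cish, Bhlhe40, Gprin2, Cd14 and Dbp, which rose, and in Oxtr, Akr1cl, Ppp1r1b, Mmd2 and Hdac7, which fell. Gprin2, chosen after its values were seen, averaged 1.57 CPM at ZT5 and 0.216 CPM at ZT1, so few reads carry its log2 difference of 2.74 (adjusted p = 0.00556). The median log2 difference over all genes was 0.0087, a value that the scaling of the libraries sets near 0. An unadjusted p under 0.05 was reached by 1186 genes (9.57%). The test with 1 library left out called 29, 24 and 18 genes without replicates 1, 2 and 3 of ZT1, and 19, 21 and 42 without replicates 1, 2 and 3 of ZT5. Against the 64 called genes, 12 passed in all 6 of those fits and in each of the 10 other settings tried. They were Dbp, Bhlhe40, Resf1, Ccn1, Ppa1, Ahsa2, Thrb and Hspa4l, which rose, and Hdac7, Smtnl2, Cacna1a and Gas6, which fell. All 64 kept their direction in every setting that tested them.

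**Figure D1:**
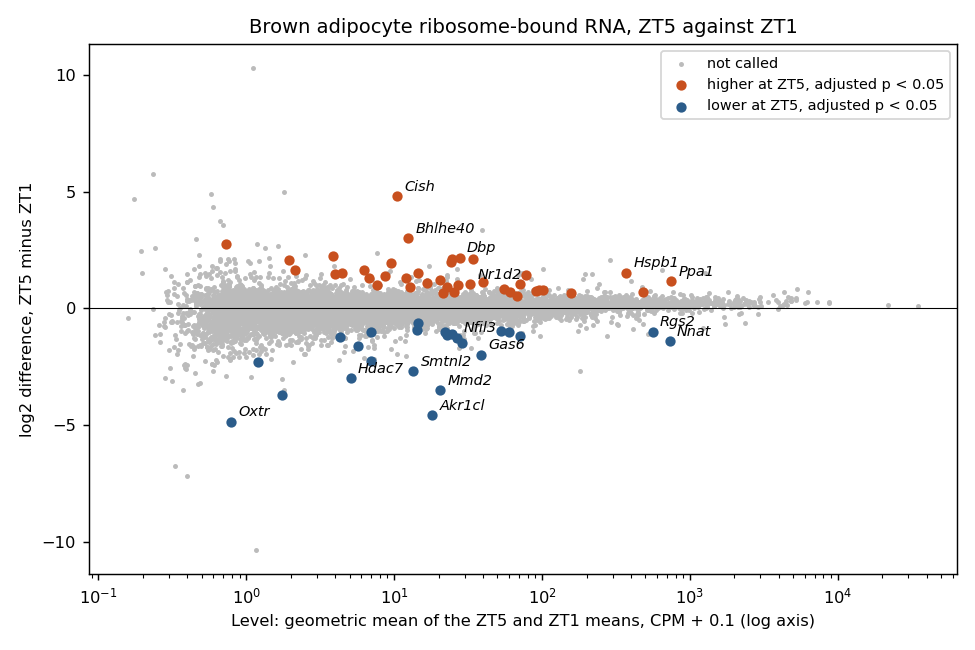
Log2 difference (ZT5 minus ZT1) against mean level on a log axis for the 12394 genes tested, 1 point per gene. The 40 genes higher at ZT5 are in orange and the 24 lower ones in blue, and most grey points lie near 0.

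The core clock list held 18 tested genes, of which 3 rose and 1 fell, and 14 did not pass. Over all genes tested, 0.516% passed in either direction. Dbp, the D-box activator (chr7:45705100-45710203, GRCm38.p6), had 63.6, 55.6 and 57.7 CPM at ZT5, against 8.31, 12 and 18.5 CPM at ZT1. The groups were far apart, with a log2 difference of 2.17 ± 0.28 (SE, adjusted p = 0.00169). Dbp shares part of its annotated span with Sphk2, a sphingosine kinase that also passed (log2 difference 0.68, adjusted p = 0.0476, though in none of the 6 fits with a library left out), and it is not stated that counting used strand, so their reads could mix. Bhlhe40, a repressor of CLOCK and BMAL1 targets (chr6:108660629-108666925), had 34.2, 48.1 and 19.6 CPM at ZT5, against 6.50, 4.10 and 2.67 CPM at ZT1. Its log2 difference was 2.99 ± 0.38 (adjusted p = 0.00169), although the ZT5 libraries varied more than 2-fold. Nr1d2, which encodes the repressor REV-ERB beta, had 44.8, 55.3 and 39.6 CPM at ZT5 and 18.9, 23.5 and 26.1 CPM at ZT1, a difference of 1.02 ± 0.19 (adjusted p = 0.023). Nfil3 moved the other way, with 16.4, 17.9 and 16.9 CPM at ZT5 and 46.1, 43.7 and 32.6 CPM at ZT1, a difference of -1.26 ± 0.23 (adjusted p = 0.023). The highest adjusted p over the alternatives was 0.0437 for Bhlhe40 and 0.0348 for Dbp, but 0.126 for Nr1d2 and 0.130 for Nfil3, which each passed in only 1 of the 6 fits with a library left out.

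The REV-ERB and ROR receptors read the half-site AGGTCA. In the RefSeq promoter windows (GRCm38.p6, 250 bases before to 50 after a start site), this hexamer, searched on both strands, lies 77 bases before the Nr1d2 start and 12 bases before the Nfil3 start. Both promoters are shown because the 2 genes moved in opposite directions and each holds 1 match, in capitals. The windows are chr14:18239057-18239356 and chr13:52980990-52981289, both read on the minus strand, and TGACCT is AGGTCA on the other strand.
Nr1d2: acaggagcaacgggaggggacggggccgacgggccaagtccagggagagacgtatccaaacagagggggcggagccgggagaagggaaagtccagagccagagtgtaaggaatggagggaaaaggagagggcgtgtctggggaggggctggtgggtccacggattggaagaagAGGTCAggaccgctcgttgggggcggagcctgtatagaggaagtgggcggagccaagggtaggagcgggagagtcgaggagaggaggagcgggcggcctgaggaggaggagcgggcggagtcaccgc
Nfil3: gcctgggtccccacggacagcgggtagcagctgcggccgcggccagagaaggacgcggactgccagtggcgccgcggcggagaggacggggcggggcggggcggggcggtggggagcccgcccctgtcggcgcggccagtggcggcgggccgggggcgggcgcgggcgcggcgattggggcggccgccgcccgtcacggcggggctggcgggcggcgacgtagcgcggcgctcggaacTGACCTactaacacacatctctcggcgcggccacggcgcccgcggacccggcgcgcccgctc
AGGTCA occurred in 16.3% of all 32851 promoters of the table, in 5 of the 15 core clock genes with an entry, in 9 of 35 genes that rose (25.7%) and in 6 of 20 that fell (30.0%). Among the 9015 genes tested that had an entry, 15.0% held it. The E-box CACGTG occurred in 7.15% of all promoters and in 12% of the genes tested, against 5 of the 15 clock genes, 4 of 35 genes that rose (11.4%) and 2 of 20 that fell (10.0%).

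The other clock genes did not pass in the main edgeR fit, while DESeq2 called 5 genes of the list and limma-voom 4. Bhlhe41, the paralogue of Bhlhe40, came nearest, with 25.4, 31.8 and 31.1 CPM at ZT5 and 16.5, 14.1 and 16.6 CPM at ZT1 (log2 difference 0.90, adjusted p = 0.0547). It passed in 3 of the 10 other settings, which were no filter on low counts, DESeq2 and the replicate block. Tef, a relative of Dbp, had 134, 129 and 145 CPM at ZT5 against 83.4, 87.6 and 104 CPM at ZT1 (0.56, adjusted p = 0.193). For both genes every ZT5 library was above every ZT1 library, as it was for 8.67% of all genes tested. Nr1d1, which encodes REV-ERB alpha, averaged 89.9 ± 8.39 CPM at ZT5 and 90.0 ± 41.0 CPM at ZT1 (SD, n = 3 each), and its ZT1 libraries ran from 46.4 to 128 CPM. Arntl had 6.94, 5.91 and 3.98 CPM at ZT5 against 10.7, 12.6 and 6.81 CPM at ZT1, a difference of -0.82 ± 0.45 (adjusted p = 0.619). Per2 differed by 0.93 (adjusted p = 0.413), Hlf by 0.38 (0.543), Cry2 by 0.21 (0.750), Per3 by 0.16 (0.871) and Rora by 0.13. Clock differed by 0.03, Ciart by -0.04, Cry1 by -0.16, Csnk1d by -0.17 and Per1 by -0.23.

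**Figure D2:**
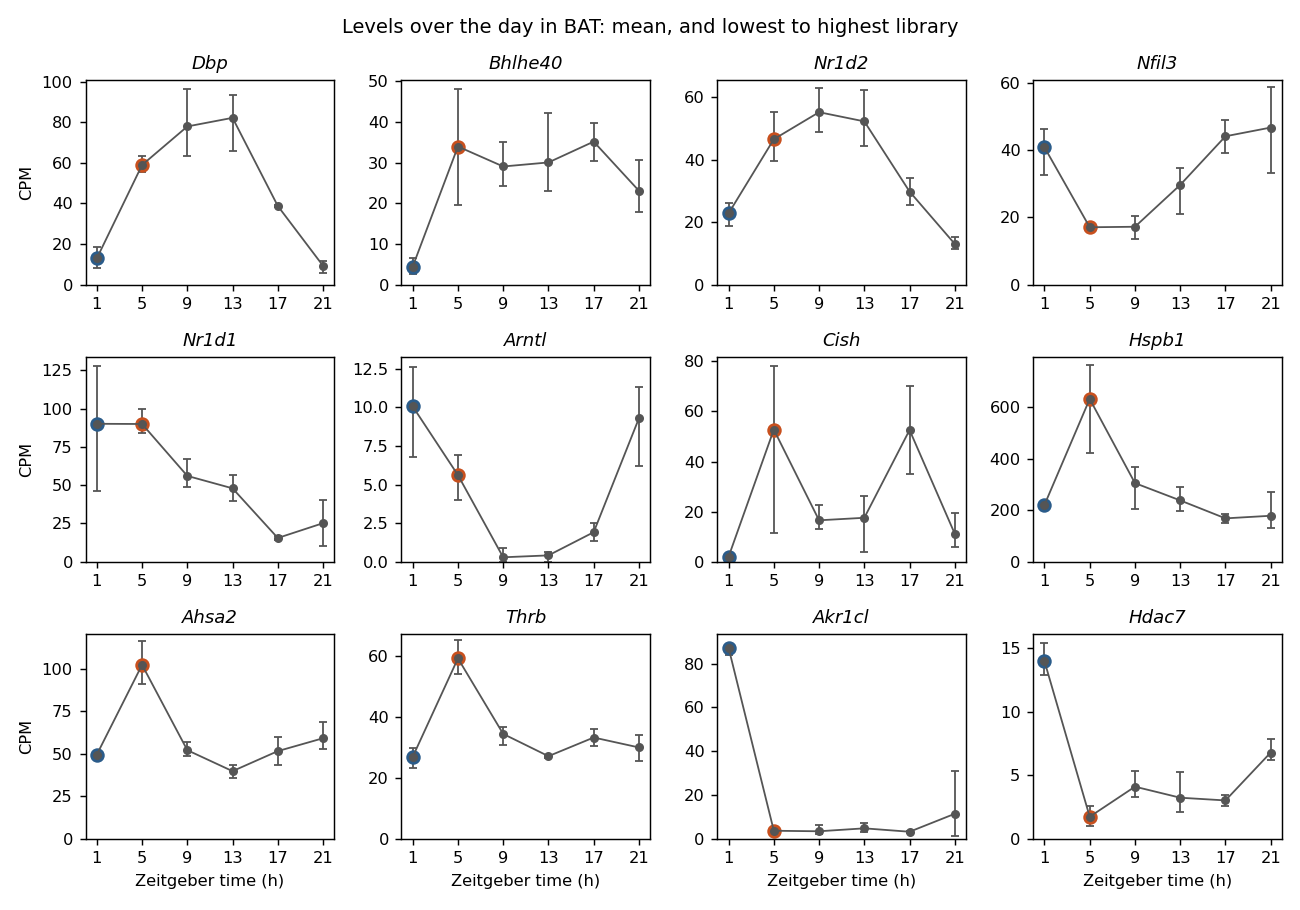
Mean CPM in BAT at the 6 Zeitgeber times for 12 genes, with bars from the lowest to the highest library (3 libraries per time, 2 at ZT17); ZT1 is blue and ZT5 orange. Dbp and Nr1d2 were higher still at ZT9, while Hspb1, Ahsa2 and Thrb had their highest mean at ZT5.

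The morning step sat at different points of the daily course for different genes. Dbp averaged 12.9 CPM at ZT1, 59.0 at ZT5, 78.0 at ZT9, 82.2 at ZT13, 38.8 at ZT17 and 9.26 at ZT21. Nfil3 averaged 40.8 CPM at ZT1, 17 at ZT5, 17.2 at ZT9, 29.6 at ZT13, 44.1 at ZT17 and 46.7 at ZT21. Of the 40 genes that rose, 26 had their highest mean of the day at ZT5 and 23 their lowest at ZT1. Of the 24 that fell, 23 had their highest mean at ZT1 and 12 their lowest at ZT5. Because the ZT5 and ZT1 means also chose these genes, these counts describe the course and support nothing further. In the same model, the step from ZT5 to ZT9 called 717 genes (5.79%) and that from ZT21 to ZT1 called 24 (0.194%). The steps from ZT9 to ZT13, ZT13 to ZT17 and ZT17 to ZT21 called 11, 4 and 4. Ribosomal RNA loci took 1.62%, 3.65% and 3.75% of counts at ZT9, against 0.973%, 0.912% and 2.435% at ZT5. Their part in the 717 calls was not tested.

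Cish had the largest rise of all called genes. Cish, a SOCS-family inhibitor that cytokine receptors induce through STAT5 (chr9:107296659-107302784), had 68.7, 78.0 and 11.6 CPM at ZT5, against 1.96, 2.48 and 1.53 CPM at ZT1. All ZT5 libraries were above all ZT1 libraries, but replicate 3 of ZT5 stood far below the other ZT5 libraries. The log2 difference was 4.79 ± 0.77 (adjusted p = 0.0083), with an adjusted p of 0.0545, 0.0528 and 0.0841 without replicates 1, 2 and 3 of ZT1. Cish also stood at 52.6 ± 24.7 CPM at ZT17 (SD, n = 2).

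The Cish promoter (chr9:107296409-107296708, plus strand) is shown for the STAT motif. Cish rose in RNA, while its ATAC promoter peak did not pass (log2 difference 0.65, edgeR adjusted p = 0.0638). Capitals mark the STAT motif TTCNNNGAA, searched on both strands, which began at the start site and 11 bases after it. That motif occurred in 3 of 35 genes that rose (8.57%) and in 1 of 20 that fell (5.00%), where 8.03% of the genes tested and 8.30% of all promoters in the table held it.
Cish: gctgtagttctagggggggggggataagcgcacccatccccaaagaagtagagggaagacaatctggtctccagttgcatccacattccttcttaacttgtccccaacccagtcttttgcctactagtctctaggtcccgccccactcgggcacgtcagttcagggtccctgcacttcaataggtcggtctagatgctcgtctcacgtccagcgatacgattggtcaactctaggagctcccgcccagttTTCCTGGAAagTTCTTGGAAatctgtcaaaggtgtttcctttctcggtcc

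Hes1, a Notch-induced repressor, had 52.7, 49.7 and 49.9 CPM at ZT5 against 16.3, 9.05 and 9.84 CPM at ZT1 (2.12 ± 0.42, adjusted p = 0.0327). Tent5a, a poly(A) polymerase, had 80.7, 92.6 and 38.5 CPM at ZT5 against 22.4, 13.9 and 13.0 CPM at ZT1 (2.11 ± 0.32, adjusted p = 0.00617). Resf1, a silencing factor for retroelements, was tight within both groups, at 45.4, 48.3 and 49.8 CPM at ZT5 and 11.3, 12.6 and 12.1 CPM at ZT1 (1.99 ± 0.28, adjusted p = 0.00346). Ccn1, a secreted matricellular protein, had 18.1, 19.0 and 17.3 CPM at ZT5 against 5.95, 4.01 and 4.45 CPM at ZT1 (1.92 ± 0.27, adjusted p = 0.0038). Spry2, an inhibitor of growth factor receptor signalling, rose by 1.502 ± 0.28, and Cyp2b10, a cytochrome P450 with close paralogues that share reads, by 1.62 ± 0.33. Hes1 was not called in any of the 6 fits with a library left out (highest adjusted p over the alternatives 0.228), and Tent5a missed only without replicate 3 of ZT1 (0.0604) among those fits. Spry2 passed in 2 of them and Cyp2b10 in 1.

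**Figure D3:**
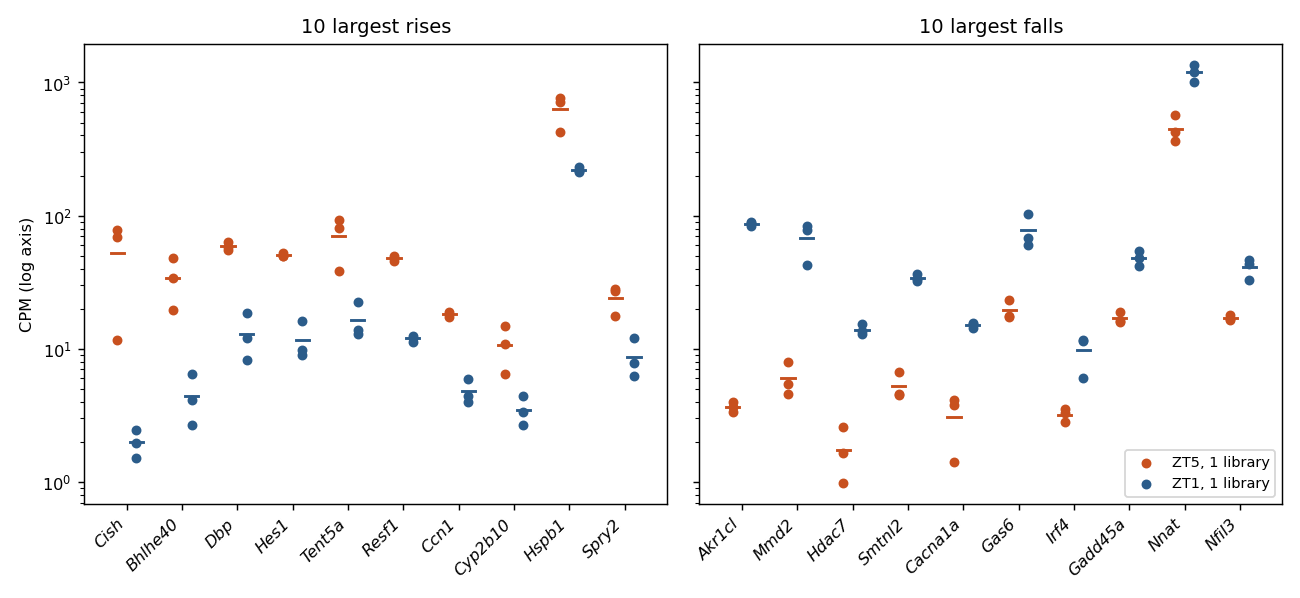
CPM on a log axis for the 10 largest rises and the 10 largest falls among called genes of at least 5 CPM, with ZT5 libraries in orange and ZT1 libraries in blue; points are libraries and bars are means of 3. The groups do not overlap for any of the 20 genes, which the rule for choosing them required.

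Receptors and enzymes made up part of the smaller rises. Thrb, the thyroid hormone receptor beta, had 54.1, 65.0 and 58.2 CPM at ZT5 against 29.9, 27.5 and 23.2 CPM at ZT1, a difference of 1.14 ± 0.14 (adjusted p = 0.00169). Ppa1, the cytosolic pyrophosphatase, was the most abundant of the 12 genes called throughout, with 1049, 939 and 1352 CPM at ZT5 and 524, 489 and 485 CPM at ZT1 (1.16 ± 0.16, adjusted p = 0.00288). Adrb1, the beta-1 adrenergic receptor, had 15.1, 21.4 and 15.8 CPM at ZT5 and 9.56, 10.1 and 8.01 CPM at ZT1 (0.92 ± 0.18, adjusted p = 0.0328). Fzd4, a Wnt receptor, rose by 0.90, Gramd1a, a sterol transport protein, by 1.00, and Apoc1, an apolipoprotein, by 0.70. Cd14, a lipopolysaccharide co-receptor known from monocytes, had 9.40, 12.2 and 2.93 CPM at ZT5 and 2.04, 1.28 and 1.85 CPM at ZT1 (2.22, adjusted p = 0.0404). Macrophage markers summed to 10.6 to 15.0 CPM at ZT5 and 12.5 to 17.5 CPM at ZT1, and their part in the Cd14 result was not tested. With a library left out, Fzd4 passed in 3 of the 6 fits, Gramd1a in 5, and Apoc1 and Cd14 in 1. Rpl37rt and Tmem254b also passed, but both have near-identical copies and are uncertain.

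Akr1cl and Mmd2 had the largest falls among genes averaging at least 5 CPM. Akr1cl, of the aldo-keto reductase family (chr1:65013078-65032759), had 3.36, 3.66 and 3.98 CPM at ZT5, against 83.9, 89.2 and 88.5 CPM at ZT1. The libraries of each time lay close together, and the log2 difference was -4.58 ± 0.84 (adjusted p = 0.023). It averaged 3.22 to 4.77 CPM from ZT9 to ZT17 and 11.4 ± 16.9 CPM at ZT21 (SD, n = 3), and it missed the threshold whenever a library was left out (highest adjusted p 0.148). Mmd2, a membrane protein of the PAQR family, had 5.45, 8.02 and 4.57 CPM at ZT5 against 42.9, 83.5 and 77.8 CPM at ZT1 (-3.51 ± 0.54, adjusted p = 0.00717).

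Hdac7, a class IIa histone deacetylase (chr15:97792661-97844502), had 1.64, 0.985 and 2.58 CPM at ZT5 against 12.8, 13.7 and 15.4 CPM at ZT1, a difference of -2.99 ± 0.34 (adjusted p = 0.00169). Smtnl2, a smoothelin-like protein, had 4.55, 4.50 and 6.67 CPM at ZT5 against 36.2, 32.3 and 33.5 CPM at ZT1 (-2.70 ± 0.32, adjusted p = 0.00169). Cacna1a, the pore subunit of P/Q-type calcium channels, had 4.10, 3.80 and 1.40 CPM at ZT5 against 14.3, 15.4 and 15.7 CPM at ZT1 (-2.27 ± 0.32). Gas6, the ligand of the TYRO3, AXL and MERTK receptors, had 23.1, 17.7 and 17.4 CPM at ZT5 against 60.4, 68.4 and 103 CPM at ZT1 (-1.99 ± 0.30). In these 4 genes the lowest ZT1 library exceeded the highest ZT5 library by more than 2-fold. Hdac7 overlaps Slc48a1, and Gas6 overlaps Tmem255b, in the annotation.

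Nnat, an imprinted proteolipid gene that overlaps Blcap, was the most abundant gene to fall, with 421, 365 and 566 CPM at ZT5 and 1201, 1013 and 1355 CPM at ZT1 (-1.40 ± 0.25, adjusted p = 0.0206). Gadd45a, a stress-inducible growth regulator, fell by 1.49 on the log2 scale, Id1, an inhibitor of bHLH factors, by 1.19, and Sult1a1, a phenol sulfotransferase, by 1.02. Rgs2, which shuts off Gq signalling, had 383, 414 and 392 CPM at ZT5 and 710, 953 and 711 CPM at ZT1 (-0.998 ± 0.20, adjusted p = 0.0327). Oxtr, Ppp1r1b and Wnt4 passed at mean levels of at most 0.493 CPM at ZT5 and 5.81 CPM at ZT1, so few reads carry their values. With a library left out, Nnat passed in 2 of the 6 fits, Id1 in 3, Sult1a1 in 4 and Gadd45a in none (highest adjusted p 0.130).

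In the thermogenesis list of 18 tested genes, none rose and 1 fell, where 0.516% of all genes tested passed in either direction. Irf4, a transcription factor that works with PGC-1 alpha in brown fat, had 3.28, 2.81 and 3.51 CPM at ZT5 and 6.03, 11.5 and 11.7 CPM at ZT1 (-1.61 ± 0.30, adjusted p = 0.0247; 0.186 at most over the alternatives). Ucp1, the uncoupling protein, had 1095, 1017 and 1527 CPM at ZT5 and 811, 1059 and 769 CPM at ZT1 (0.46 ± 0.36, adjusted p = 0.793), with overlapping groups. Cidea, which acts in lipid droplets, had a log2 difference of 0.59 ± 0.19 (adjusted p = 0.244). In the adrenergic list of 15 tested genes, Adrb1 rose and Rgs2 fell by edgeR with all libraries, but neither passed in any of the 6 fits with a library left out (highest adjusted p 0.255 and 0.172). Adrb3 differed by -0.47 (adjusted p = 0.655).

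The heat shock and chaperone list had 16 tested genes, and by edgeR 1 of them, Hspb1, rose, where 0.323% of all genes tested did. Hspb1, the small heat shock protein HSP27 (chr5:135887919-135889563), had 763, 708 and 422 CPM at ZT5 against 212, 233 and 215 CPM at ZT1, a difference of 1.52 ± 0.30 (adjusted p = 0.0318; 0.202 at most over the alternatives, and passing in 1 of the 6 fits with a library left out). Of the 16 genes, 13 had positive differences, as did 6342 of all 12394 genes tested. The median of the 16 was 0.68, against 0.0087 over all genes tested. In 10 of the 16 every ZT5 library was above every ZT1 library, where 8.67% of all genes were. The inducible HSP90, Hsp90aa1, had 1871, 1841 and 2773 CPM at ZT5 and 937, 582 and 725 CPM at ZT1 (1.53 ± 0.39, adjusted p = 0.115). Hsph1, an HSP110 chaperone, had 130, 160 and 78.1 CPM at ZT5 and 40.2, 42.5 and 47.3 CPM at ZT1 (1.501 ± 0.34, adjusted p = 0.0676). DESeq2 called 6 members and limma-voom 2, where over all 12394 genes tested they called 203 and 76.

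Chaperone-related genes outside that list, picked out after their values were seen, were among the genes that rose. Hspa4l, of the HSP110 family, had 30.4, 36.0 and 26 CPM at ZT5 against 12.8, 13.7 and 13.7 CPM at ZT1 (1.20 ± 0.15, adjusted p = 0.00169). Ahsa2, a relative of the HSP90 ATPase activator Ahsa1, had 99.2, 116 and 91.2 CPM at ZT5 against 49.9, 47.0 and 51.6 CPM at ZT1 (1.05 ± 0.15, adjusted p = 0.00401). Ahsa1 itself rose by 0.65 (adjusted p = 0.0206), Stip1, the adaptor between HSP70 and HSP90, by 0.73 (0.0083), and Cacybp, a calcyclin-binding protein, by 0.76 (0.0373). In each of these 5 genes every ZT5 library was above every ZT1 library, as in 8.67% of all genes tested. With a library left out, Ahsa1 and Cacybp passed in 1 of the 6 fits (highest adjusted p 0.105 and 0.250) and Stip1 in 3. Ahsa1, Stip1 and Cacybp also missed with the 6 libraries alone. Ahsa1 missed with no filter on low counts too, and Cacybp with upper-quartile scaling or the replicate block.

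The Hspb1 promoter (chr5:135887669-135887968, plus strand) is shown for the heat shock motif, GAANNTTC, searched on both strands and set in capitals. It began 117 and 97 bases before the start site. The motif occurred in 9 of the 12 listed chaperone genes with a promoter entry (75.0%), in 2 of the 35 genes that rose (5.71%) and in 4 of the 20 that fell, where 6.78% of the genes tested and 7.86% of all promoters held it.
Hspb1: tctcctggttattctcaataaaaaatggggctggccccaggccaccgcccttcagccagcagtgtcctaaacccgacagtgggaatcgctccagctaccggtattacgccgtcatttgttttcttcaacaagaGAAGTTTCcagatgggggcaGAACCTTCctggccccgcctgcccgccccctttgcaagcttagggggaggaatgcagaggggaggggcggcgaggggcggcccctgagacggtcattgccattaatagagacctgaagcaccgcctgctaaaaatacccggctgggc

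Several large gene groups lay to 1 side of 0 with no gene passing by edgeR. All 78 cytosolic ribosomal protein genes tested had positive differences, with a median of 0.28 (20 at an unadjusted p under 0.05; 1 called by DESeq2 and 0 by limma-voom), and in 31 every ZT5 library was above every ZT1 library. Over all genes tested, 6342 of 12394 had positive differences, 8.67% were separated that way and 9.57% had an unadjusted p under 0.05. All 15 mitochondrially encoded genes had positive differences, with a median of 1.24 (2 at an unadjusted p under 0.05, 0 by DESeq2 and by limma-voom). In 6 of the 15 every ZT5 library was above every ZT1 library. Among these was mt-Rnr2, the gene of smallest p. It had 387, 323 and 1055 CPM at ZT5 and 234, 94.6 and 90.5 CPM at ZT1 (2.08 ± 0.70, edgeR adjusted p = 0.284). The groups overlapped for mt-Co1, a cytochrome oxidase subunit. Its values were 754, 518 and 2147 CPM at ZT5 and 693, 188 and 225 CPM at ZT1 (1.63 ± 0.96, adjusted p = 0.670). In both genes replicate 3 of ZT5 was far above the other libraries. That library also held the largest mitochondrial and ribosomal RNA shares, and their part in these differences was not tested. Of 22 nuclear respiratory chain genes, 21 had positive differences, with a median of 0.22 (1 at an unadjusted p under 0.05, 0 by DESeq2 and by limma-voom). In 6 of the 22 every ZT5 library was above every ZT1 library.

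**Figure D4:**
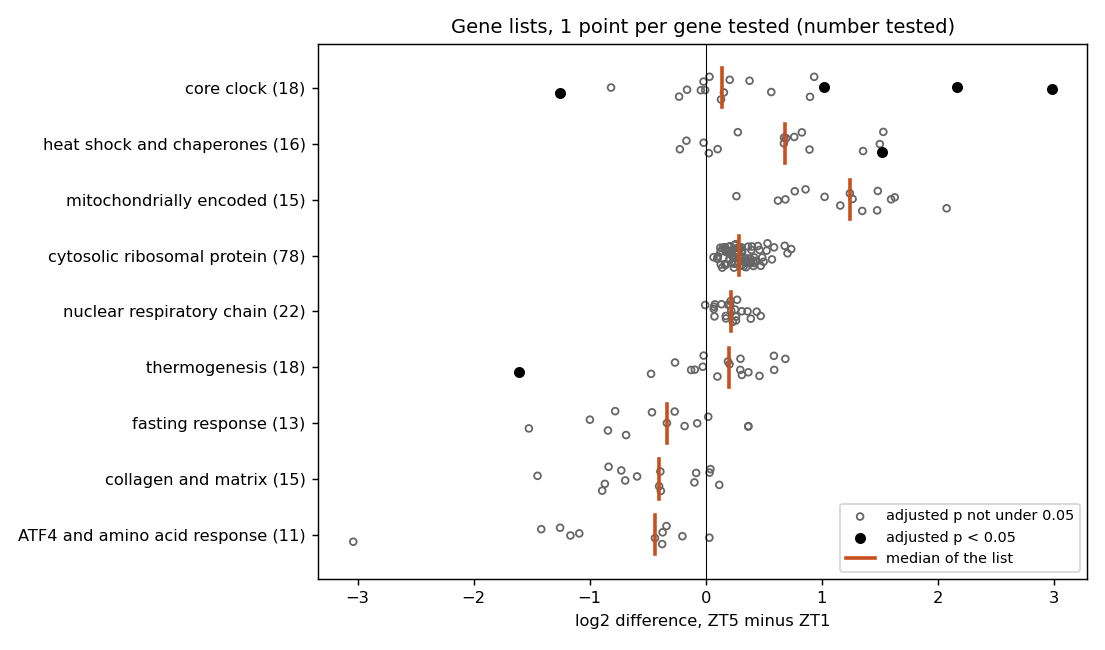
Log2 difference (ZT5 minus ZT1) of every tested gene in 9 gene lists, with the list median as an orange bar and genes of adjusted p under 0.05 filled. Cytosolic ribosomal protein genes lie in a narrow band above 0, and mitochondrially encoded genes spread from 0.26 to 2.08.

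The ATF4 and amino acid list leaned the other way, with 10 of 11 tested genes negative and a median of -0.44 (6 at an unadjusted p under 0.05, 0 by edgeR, 1 by DESeq2 and 0 by limma-voom). Over all genes tested, 6052 of 12394 had negative differences. In 5 of the 11 every ZT5 library was below every ZT1 library, where 9.59% of all genes were. Trib3, a pseudokinase, had 21.1, 25.2 and 11.6 CPM at ZT5 and 38.5, 44.9 and 46.3 CPM at ZT1 (-1.17 ± 0.35, adjusted p = 0.198). Sesn2, a sestrin, had 0.373, 1.13 and 0.234 CPM at ZT5 and 1.88, 5.30 and 6.05 CPM at ZT1 (-3.04 ± 0.82, adjusted p = 0.147). Among fasting-response genes (13 tested, 5 at an unadjusted p under 0.05, 0 by edgeR, DESeq2 or limma-voom), Pdk4, which restrains pyruvate oxidation, had 912, 1135 and 711 CPM at ZT5 and 1300, 2084 and 1562 CPM at ZT1 (-0.84 ± 0.37, adjusted p = 0.466). In both lists these named genes had separate groups, yet none passed. Over all 46 lists with a tested gene, 4 held a gene that passed and 42 held none.

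In each remaining list the smallest adjusted p stayed above 0.05 by edgeR with all libraries, although DESeq2 called genes of several, Hilpda, Ier3, Pfkfb3, Cebpb and Irs1 among them, and limma-voom called Ier3. Among these lists, Ier3, an immediate early gene, differed by 1.04 (adjusted p = 0.0752), Hilpda, a lipid droplet protein, by -1.16 (0.0676), Pfkfb3, a glycolytic regulator, by -1.20 (0.109), Cebpb, an adipogenic factor, by -1.12 (0.125), Irs1, an insulin receptor substrate, by -1.31 (0.139) and Klf3, a Kruppel-like factor, by 0.52 (0.155). Fkbp5, a glucocorticoid target, differed by 1.26 (0.340) and Socs3, a cytokine feedback inhibitor related to Cish, by 2.59 (0.290).

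The same genes were read at the same times in WAT, from other libraries. Of the 104 genes called in WAT (0.819% of 12703 tested), 5 were among the 64. Of the 40 genes that rose in BAT, 37 were tested in WAT, and 26 of them had positive and 11 negative differences there. Hspb1 (2.07 ± 0.41, adjusted p = 0.0181), Cish (3.68 ± 0.80, 0.0302) and Dbp (2.15 ± 0.35, 0.00675) rose in WAT too. Of the 24 genes that fell in BAT, 21 were tested in WAT, 18 of them negative, and Gas6 (-1.99 ± 0.36, 0.0124) and Sult1a1 (-1.56 ± 0.37, 0.0447) fell. WAT libraries carried far more mitochondrial and ribosomal RNA, at 4.29% to 14.3% and 25.1% to 66.0% of counts at ZT5, and 9.33% to 23.9% and 5.26% to 15.3% at ZT1.

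Of 14969 genes, 2 differed between depots in their morning change (0.0134%, against 9.81% at an unadjusted p under 0.05). Hdac7 was the only one of the 64 to do so. Scaled over both depots, it had 1.53, 0.897 and 2.39 CPM at ZT5 and 11.9, 12.7 and 14.5 CPM at ZT1 in BAT, and 52.4, 63.5 and 25.8 CPM at ZT5 and 58.6, 31.3 and 51.7 CPM at ZT1 in WAT. The BAT change minus the WAT change was -3.02 ± 0.50 (adjusted p = 0.00971; 0.104 without BAT replicate 1 of ZT5 and 0.125 without WAT replicate 2 of ZT1), and the WAT change alone was -0.02 ± 0.36. For Dbp that difference was -0.03 ± 0.41 and for Gas6 -0.07 ± 0.46, neither of which passed. Ccn1 came near, with 3.15 ± 0.75 (adjusted p = 0.0864).

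Chromatin accessibility at the same times was read in 3 ATAC libraries each of BAT adipocyte nuclei, over 42572 peaks. Of these, 1967 gained tags at ZT5 (4.62%) and 2797 lost tags (6.57%). At promoters the gains outnumbered the losses, with 2.90% of 10629 peaks higher and 0.828% lower, while in introns 5.46% were higher and 8.40% lower, and between genes 4.92% were higher and 9.22% lower. Of the 33 genes that rose and had a peak within 10 kb of a start site, 11 had a peak that gained tags (33.3%) and 1 had a peak that lost tags (3.03%). Of the 21 genes that fell and had a peak, 8 had a peak that lost tags (38.1%) and 1 had a peak that gained tags (4.76%). Among all 9341 genes tested with a peak, the shares were 6.16% with a gain and 3.80% with a loss. Without ATAC replicate 2 or 3 of ZT1, the calls fell to 2501 and 1747 peaks against 4764 with all libraries, and without replicate 1 or 2 of ZT5 to 2538 and 2584. The share of risen genes with a gain was 12.1% without ATAC replicate 3 of ZT1 and 18.2% without replicate 2 of ZT5, where 1.97% and 3.15% of all genes tested with a peak had one.

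Smtnl2 lost tags at 6 peaks, among them its promoter peak 77 bases before the start, which had 21.6, 16.0 and 21.7 CPM of tags at ZT5 and 38.6, 31.4 and 29.0 at ZT1 (-0.71 ± 0.16, adjusted p = 0.00631). Hdac7 lost tags at 2 peaks, 6073 and 4741 bases downstream of an annotated start site that lies inside the gene span given above. The first had 15.3, 22.2 and 26.7 CPM at ZT5 and 46.7, 41.5 and 33.9 CPM at ZT1 (-0.88 ± 0.19, adjusted p = 0.00595). Nfil3 lost tags 4517 bases upstream (-0.76, adjusted p = 0.00492) and 6207 bases downstream (-0.57, 0.0177). The only peak of Akr1cl within 10 kb, 8227 bases upstream, lost tags (-0.80, adjusted p = 0.00091). Each of these genes also fell in RNA.

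Tent5a gained tags at 2 peaks, the larger gain 680 bases upstream of the start (0.76 ± 0.16, adjusted p = 0.00464), and Hes1 at 3 peaks, with differences of 0.35 to 0.56. A peak 9282 bases downstream of the Cish start had 35.2, 38.4 and 24.7 CPM of tags at ZT5 and 17, 16.0 and 17.9 CPM at ZT1 (0.92 ± 0.22, adjusted p = 0.0105). The Cish promoter peak, which spans the first motif shown above, differed by 0.65 ± 0.22 (adjusted p = 0.0638). Some genes did not pair in this way: Cyp2b10 rose in RNA while a peak 4289 bases upstream lost tags (-0.72, adjusted p = 0.0223), and Gadd45a fell while its promoter peak gained tags (0.22, adjusted p = 0.0354). No peak within 10 kb of Dbp, Bhlhe40, Nr1d2 or Hspb1 passed.

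**Figure D5:**
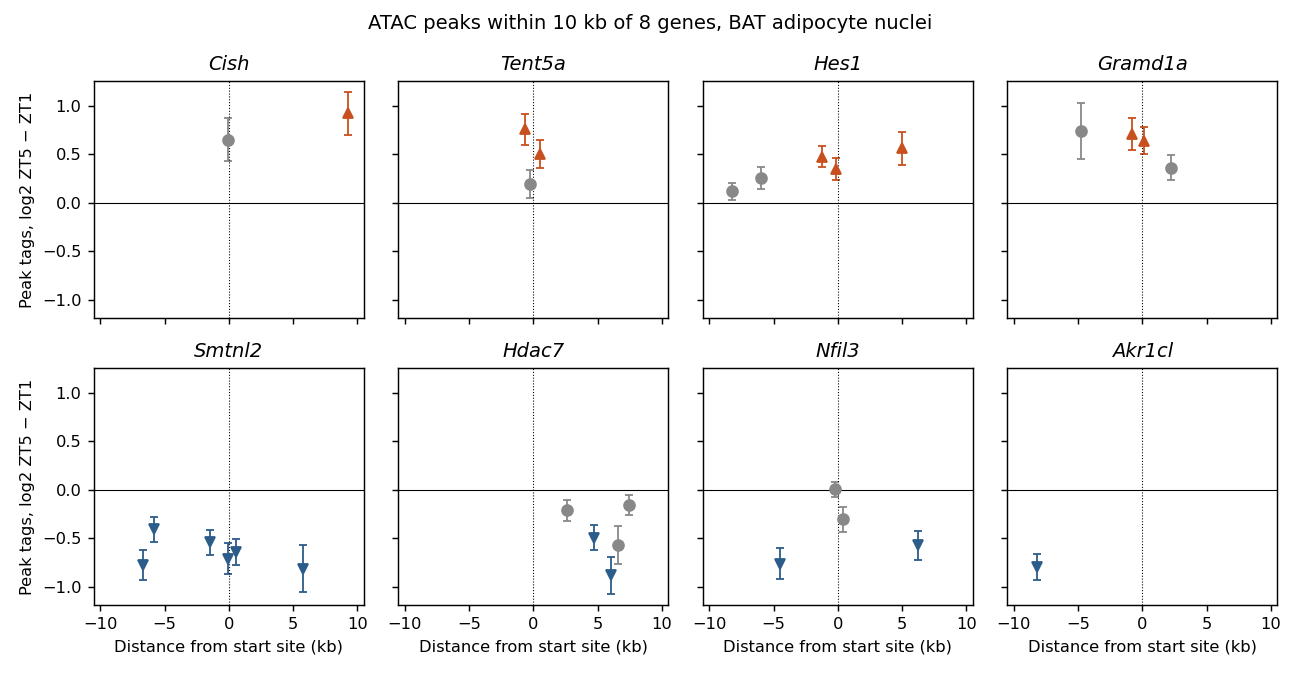
Log2 difference in ATAC tags (ZT5 minus ZT1) with its SE for each peak within 10 kb of 8 genes, by distance in kb from the start site assigned to that peak. Orange triangles gained and blue triangles lost tags at an adjusted p under 0.05, and grey points did not pass; 4 genes that rose in RNA are above and 4 that fell below.

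BMAL1 binding was taken from the authors' peak list of 10368 peaks, made from inguinal WAT of C57BL6J mice at ZT4, another depot and strain. A BMAL1 peak lay within 10 kb of a start site in 24 of the 40 genes that rose (60.0%), 9 of the 24 that fell (37.5%) and 46.1% of all 12394 genes tested. With the higher-scoring peaks alone, down to the median score, the shares were 35.0%, 25.0% and 29.2%. Ranked by the authors' peak score, Nr1d2 had the peak of rank 3, Dbp those of ranks 6 and 7, and Bhlhe40 those of ranks 24 and 68, while Hes1 had rank 489, Nfil3 rank 1199 and Cish rank 6029. Nr1d1, whose RNA did not pass, had the peak of rank 1.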

How the data were processed

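Adipocyte RNA of BAT at ZT5 and ZT1 (3 libraries each) was compared within all 17 BAT RNA libraries, with 18 WAT RNA libraries, 18 BAT ATAC libraries and 2 BMAL1 ChIP libraries as other readouts. The authors deposited expected counts per Ensembl gene, unnormalized, made per the submitters' processing notes with tools that include STAR 2.7.5 and RSEM 1.3.0 on mm10. The roles of these tools are not given in the sources used here. Libraries were directional per the labels' protocols, but whether counting used strand is not given, so overlapping genes and near-identical copies are uncertain. TPM values that the authors deposited for BAT were read as a check of levels and no TPM is printed, and 1 of that table's columns belonged to no listed sample and was not used. The deposited ATAC table gives raw tag counts per peak, and the BMAL1 table a peak score from a pooled peak list, per the file headers.

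Expected counts were rounded. TMM scaling, the filterByExpr filter and quasi-likelihood F tests of contrasts between times came from edgeR 4.0.16 (R 4.3.3), with p adjusted by Benjamini-Hochberg over all features tested and a threshold of 0.05. Dividing the size of a log2 difference by the square root of its F gave its SE. The depot difference was tested over all 35 RNA libraries and ATAC over all 18 libraries. CPM are scaled by TMM, except sums over markers, which are shares of the total count. DESeq2 1.42.0 and limma 3.58.1 were alternatives. The fitting procedure was tested on simulated data. Symbols were found for 55394 of 55487 gene identifiers. Promoters and gene positions are from RefSeq (GRCm38.p6), matched by symbol, and peak positions and distances are as deposited. Figures were drawn with matplotlib 3.10.9.

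Replicate numbers were not taken to pair libraries. The genes named are the tested core clock genes, some of which are not reported here, the 10 largest rises and the 10 largest falls among called genes with separate groups and a mean of at least 5 CPM, up to 4 passing genes of each list and, where none passed, the gene of smallest p. Other genes were chosen after their values were seen. The comparison and the gene lists were chosen with earlier results of these data known.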

Additional observations from a re-analysis of the deposited data

Results flagged for a closer look

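The morning change of Hdac7 differed between depots by a test of the difference itself, with a BAT change minus WAT change of -3.02 on the log2 scale. It fell in BAT and its WAT libraries overlapped, at 25.8 to 63.5 CPM at ZT5 and 31.3 to 58.6 CPM at ZT1.

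Pcdhgc4, of the gamma protocadherin cluster, was the other gene whose change differed between depots, by 3.96 ± 0.74 (edgeR adjusted p = 0.0399). In BAT it had 47.2, 38.6 and 50.0 CPM at ZT5 and 54.8, 55.1 and 51.9 CPM at ZT1. In WAT it had 0.884, 4.08 and 0 CPM at ZT5 and 28.8, 56.2 and 30.3 CPM at ZT1. Members of that cluster share their last exons, so reads of Pcdhgc4 are uncertain, and the call was lost in 8 of the 12 fits with a library left out, with an adjusted p of at most 0.145.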

How the results depend on the processing

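The count of 64 genes became 32 (16 higher, 16 lower) in a fit of the 6 libraries alone, 358 (149 higher, 209 lower) with no filter on low counts and 203 by DESeq2 (116 higher, 87 lower), with 26, 58 and 63 of the 64 among them. It ranged from 18 to 42 with a library left out. A minimum mean of 5 CPM gave 70 (36 higher, 34 lower), and the cause of these differences was not tested. RLE and upper-quartile scaling gave 67 and 62, limma-voom 76, leaving out mitochondrial and ribosomal RNA 64, and thinning the deepest library, a setting chosen after seeing the data, 60. With the replicate number as a block, 55 genes were called, 5141 peaks, and 4 genes for the depot difference. In deviations from the group means of RNA, same-numbered libraries correlated by -0.254, 0.341 and 0.000825. Libraries of different numbers correlated by -0.423 to 0.412. These values cannot show whether libraries of a number share an animal or a batch.

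The depot difference called 2 genes, and 9 with RLE scaling, 17 with a minimum of 5 CPM, 141 with no filter, 59 with the 12 libraries alone, 4 by limma with quality weights and 1 without mitochondrial and ribosomal RNA; with a library left out it called 0 to 16. RLE scaling moved the median of that difference to -0.10 and quality weights to 0.15, against 0.01. ATAC calls ranged from 1747 to 4093 with a library left out, against 4764, and otherwise from 4613 to 6280. The share of risen genes with a BMAL1 peak was 60.0%, and 35.0% with the higher-scoring peaks.

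Depth limits genes below about 1 CPM, where a ZT5 library of 6242123 counts holds few reads, and 3 libraries per time limit each result to changes well above the spread between libraries.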

Other observations

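Further genes that rose are described here from values already seen. Amotl2, an angiomotin-like scaffold protein, had 98.9, 94.0 and 188 CPM at ZT5 against 59.8, 43.4 and 40.1 CPM at ZT1 (log2 difference 1.41 ± 0.26, edgeR adjusted p = 0.0239). Ajuba, a LIM-domain scaffold, had 8.58, 6.90 and 6.20 CPM at ZT5 against 2.19, 3.33 and 2.16 CPM at ZT1 (1.53 ± 0.32, adjusted p = 0.0411), and 3 of its intronic ATAC peaks gained tags, with differences of 0.59 to 1.00. Synm, an intermediate filament protein, had 18.7, 22 and 15.5 CPM at ZT5 against 6.50, 7.35 and 8.99 CPM at ZT1 (1.28 ± 0.21, adjusted p = 0.00907). Nuak1, a kinase related to AMPK, rose by 1.40 (adjusted p = 0.0203), Tob1, an antiproliferative regulator, by 0.79 (0.0327), P4ha1, a collagen prolyl hydroxylase, by 1.01 (0.0327), and Tra2a, a splicing factor, by 0.83 (0.0309). With a library left out, Amotl2 passed in 3 of the 6 fits, and Nuak1 and Synm in 2. Ajuba, Tob1, P4ha1 and Tra2a passed in none of them (highest adjusted p over the alternatives 0.301, 0.202, 0.160 and 0.141). Among genes that fell, Palm, a membrane-anchored phosphoprotein, had 16.0, 15.5 and 14.9 CPM at ZT5 against 33.3, 27.0 and 33.5 CPM at ZT1 (-1.02 ± 0.21, adjusted p = 0.0373), and 3 of its ATAC peaks lost tags. Palm passed in none of the 6 fits with a library left out (highest adjusted p 0.202).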
